A study of Homo sapiens with 6 samples.

Results

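The 10 genes of replication origin licensing and firing examined here were ORC1, ORC6, CDC6, CDT1, GMNN, CDC45, MCM10, CDC7, DBF4 and TICRR. They were chosen by symbol, each matched 1 row by its Ensembl identifier among the 20289 genes of the table, and all 10 reached the mean of 1 FPKM required for testing (10592 genes did). FPKM is the number of fragments per kilobase of transcript, scaled to the mapped fragments of the library. RNA was sequenced from RKO cells, a line established from a human colorectal cancer. The cells carried a control short hairpin RNA (shControl, 3 libraries) or one directed at TRMT6 (shTRMT6, 3 libraries). TRMT6 is the non-catalytic subunit of a tRNA adenosine methyltransferase. Both groups carry a hairpin, and samples without one were not analysed here. How many hairpin sequences or clones stand behind each group is unstated in the sources used here. The comparison asks how the mRNA level of these genes differs when TRMT6 is knocked down.

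Before S phase, the origin recognition complex (ORC) sits on DNA and, with CDC6 and CDT1, loads the MCM helicase; this is licensing. Geminin, the product of GMNN, binds CDT1 and stops licensing outside G1. Firing follows when the kinase CDC7, switched on by its partner DBF4, and cyclin-dependent kinases act on the loaded helicase. CDC45 and the GINS complex then join it with the help of treslin (TICRR). MCM10 helps the assembled helicase to start unwinding. Many of these genes are transcribed late in G1 under the control of E2F factors, and they are commonly high in proliferating tumour cells.

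TRMT6 itself read 14.43, 17.96 and 16.85 FPKM in shControl replicates 1 to 3 and 1.58, 1.73 and 1.09 FPKM in shTRMT6 replicates 1 to 3. Steps between low values put the depth roughly at 21.0 to 28.3 M (mega) fragments in shControl and 17.8 to 20.1 M in shTRMT6. Log2 values correlated at 0.989 to 0.995 for libraries of 1 group and at 0.963 to 0.982 across groups. Of 7 colon epithelium markers CDH1, VIL1 and KRT20 were listed at 0 in every library; KRT18, KRT8, CDX2 and EPCAM were detected. The summed level of the markers was 123.6 to 156.1 FPKM in shControl and 201.0 to 213.6 FPKM in shTRMT6. Most of that sum was KRT18, with a mean of 118.4 FPKM in shControl against 186.3 in shTRMT6. The means of the others were 4.20 against 6.29 FPKM (EPCAM), 9.60 against 10.04 (KRT8) and 5.41 against 5.18 (CDX2). The part of these marker levels in the results was not tested. Of the leukocyte markers, PTPRC and CD3E were at 0 to 0.02 FPKM, and CD68, also expressed outside leukocytes, was at 677.0 to 810.5 FPKM in shControl and 738.4 to 996.4 FPKM in shTRMT6. The 4 fibroblast markers summed to at most 1.21 FPKM and the 3 endothelium markers to at most 0.17 FPKM in any library.

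Promoter sequences are shown first for the 3 genes that fell in shTRMT6, CDC45, TICRR and ORC1, and for CDC6, which did not pass the test; E2F control is a textbook feature of such genes, which is why these words were searched. Each run is the RefSeq window of GRCh38.p14 from 250 bases before to 50 after the first listed start, read 5′ to 3′ on the strand of the gene. Capitals mark 2 kinds of word on either strand: the E2F words and the box CCAAT, whose reverse complement reads ATTGG. The E2F words were TTTCCCGC, TTTCCCGG, TTTCGCGC, TTTCGCGG, TTTGCCGC, TTTGCCGG, TTTGGCGC and TTTGGCGG; the 4 ending in G were added after the windows had been read. The windows are chr22:19479670-19479969 on the plus strand (CDC45), chr15:89575219-89575518 plus (TICRR), chr1:52404374-52404673 minus (ORC1) and chr17:40287629-40287928 plus (CDC6).
CDC45: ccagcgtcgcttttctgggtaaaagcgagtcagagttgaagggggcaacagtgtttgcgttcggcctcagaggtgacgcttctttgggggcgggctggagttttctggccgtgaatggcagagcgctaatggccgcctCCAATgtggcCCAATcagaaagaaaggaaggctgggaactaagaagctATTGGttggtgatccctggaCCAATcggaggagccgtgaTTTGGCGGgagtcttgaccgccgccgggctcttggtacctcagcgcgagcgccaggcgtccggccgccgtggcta
TICRR: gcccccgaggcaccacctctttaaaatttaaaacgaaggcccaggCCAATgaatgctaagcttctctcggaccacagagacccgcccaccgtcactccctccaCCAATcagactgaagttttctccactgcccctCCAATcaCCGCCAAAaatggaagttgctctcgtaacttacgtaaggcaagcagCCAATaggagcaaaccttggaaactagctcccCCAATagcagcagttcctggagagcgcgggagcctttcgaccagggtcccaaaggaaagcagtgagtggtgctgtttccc
ORC1: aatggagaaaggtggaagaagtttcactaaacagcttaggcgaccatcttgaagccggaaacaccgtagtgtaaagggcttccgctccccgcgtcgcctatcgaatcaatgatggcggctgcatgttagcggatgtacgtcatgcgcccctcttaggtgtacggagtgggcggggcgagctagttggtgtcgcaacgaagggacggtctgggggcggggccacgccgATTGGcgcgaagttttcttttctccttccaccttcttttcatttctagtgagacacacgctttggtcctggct
CDC6: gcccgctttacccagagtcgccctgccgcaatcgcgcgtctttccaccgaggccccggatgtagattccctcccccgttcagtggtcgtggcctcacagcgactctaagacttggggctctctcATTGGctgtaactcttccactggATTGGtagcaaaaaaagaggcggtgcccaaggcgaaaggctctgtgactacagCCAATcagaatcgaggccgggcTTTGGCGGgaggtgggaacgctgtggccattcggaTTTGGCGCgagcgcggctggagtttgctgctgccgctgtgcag

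This CDC45 window holds TTTGGCGG starting 25 bases before the start, with 4 CCAAT boxes upstream of it. Of the 3 CDC45 windows only this one holds an E2F word, and chr22:19479216-19479515 holds neither kind of word. TICRR has 5 CCAAT boxes, and TTTGGCGG on the other strand 108 bases before the start. ORC1 has no E2F word and 1 CCAAT box. CDC6 has TTTGGCGG 28 bases before its start, TTTGGCGC just after it, and 3 CCAAT boxes. Of the 15 RefSeq windows of the 10 genes, 8 windows of 7 genes hold an E2F word, and 6.19% of all 35116 windows of that length do. Since 4 words were added with these windows in view, the wider count supports nothing by itself: with the 4 words ending in C alone, 4 windows of 4 genes (CDC6, CDT1, GMNN and CDC7) match, and 3.31% of all windows. CDC45, TICRR and MCM10 match only through TTTGGCGG, one of the added words. For CCAAT the counts were 9 windows of 7 genes, and 34.6% of all windows. ORC1, ORC6 and DBF4 have no E2F word in these windows. An E2F word was present in at least 1 window of genes that fell (CDC45, TICRR) and of genes that did not pass (CDC6, CDT1, GMNN, MCM10, CDC7), as the map of promoter words shows. For CDC45, GMNN and CDC7, windows at other starts hold none. These include, for each of these genes, the window whose start lies nearest to the gene start in GENCODE release 29. A match is a match of letters only.

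**Figure D1:**
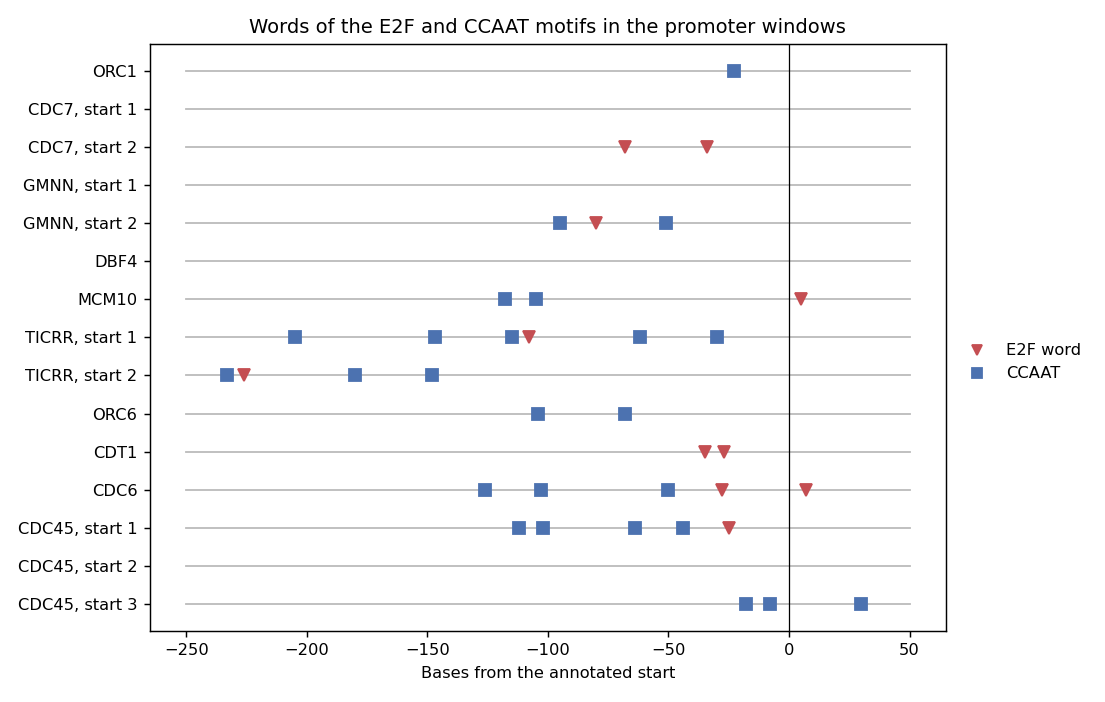
Positions of E2F words (triangles) and CCAAT boxes (squares) in the 15 promoter windows of the 10 genes, in bases from the annotated start. E2F words lie between 108 bases before and 7 bases after the start in 7 windows; the second TICRR window holds the word of the first one, 226 bases before its own start.

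Of the 10 genes, 9 had a lower mean log2 level in shTRMT6, but the shift was small for most of them and 3 passed the test. Of all 10592 tested genes, 4989 had a lower mean log2 level. Among the 9, DBF4 was nearly unchanged (log2 change -0.025), and the signs of DBF4 and MCM10 turned when some single libraries were left out. CDC45, TICRR and ORC1 fell, by 1.60-fold, 1.58-fold and 1.27-fold in mean FPKM, and none rose. By limma on log2(FPKM + 1), with Benjamini-Hochberg adjustment over all tested genes and a threshold of 0.05, 35.4% of all tested genes passed, 16.1% lower and 19.3% higher. With 3 of 10 passing lower, the count stands on 3 genes and is read against that 16.1%. The median log2 change (shTRMT6 minus shControl) was -0.24 over the 10 genes and 0.024 over all tested genes. With the replicate number as a block, 5 of the 10 fell (ORC6 and CDT1 in addition), where 21.3% of all tested genes were lower. In bulk RNA, fewer cells at the stage that expresses these genes and less RNA per cell cannot be told apart.

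The shTRMT6 libraries all lay below the shControl libraries for 6 of the 10 genes (CDC45, TICRR, ORC1, ORC6, CDT1 and GMNN), against 22.1% of all tested genes. None of the 10 had all shTRMT6 libraries above, against 26.2% of all tested genes. For CDC6, MCM10, CDC7 and DBF4 the groups overlapped. The summed level of the 10 genes was 191.1 to 202.6 FPKM in shControl and 146.9 to 168.4 FPKM in shTRMT6. Leaving out 1 library at a time gave 2 to 4 genes past the threshold, all lower, where 1112 to 1731 of all 10592 tested genes were lower.

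**Figure D2:**
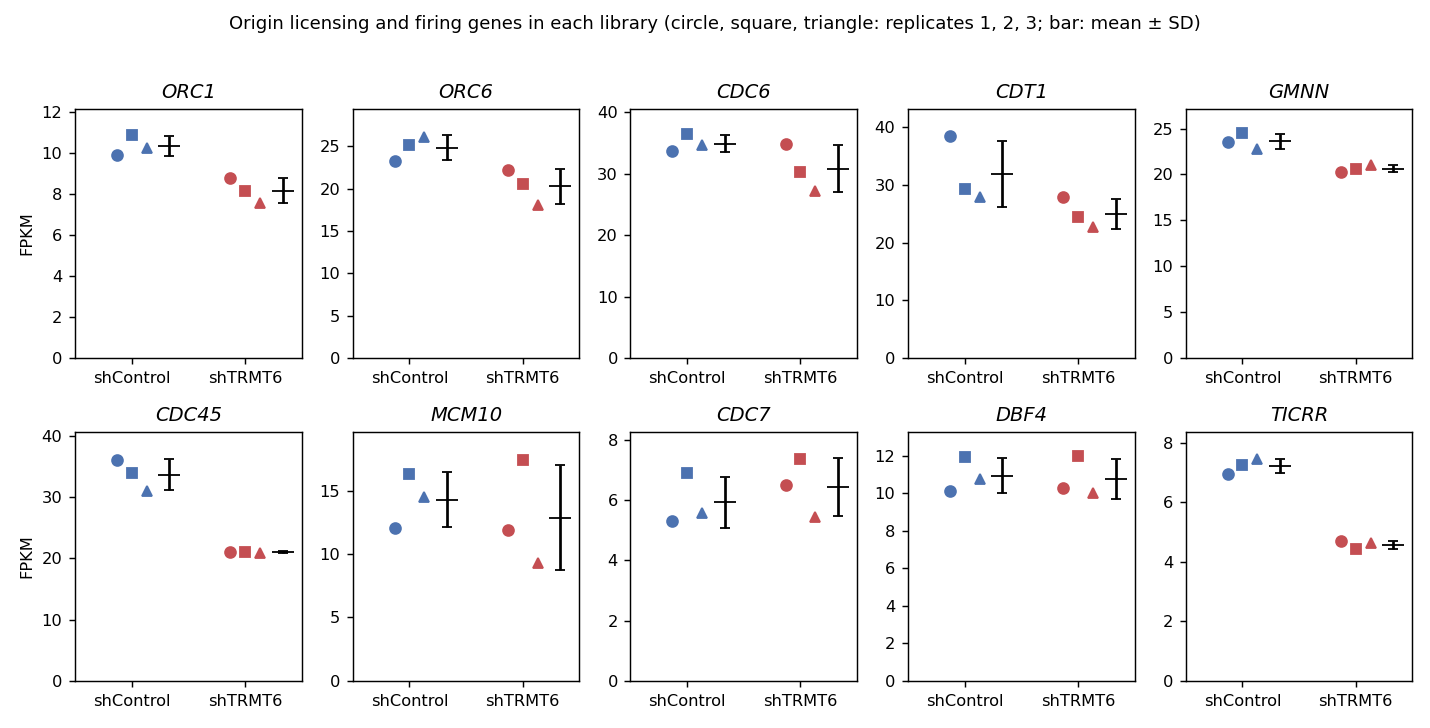
FPKM of the 10 genes in each library, shControl in blue and shTRMT6 in red, with circles, squares and triangles for replicates 1, 2 and 3 and a bar for the mean ± SD (n = 3). The groups are clearly apart for CDC45 and TICRR, whereas for MCM10, CDC7 and DBF4 replicate 2 is the highest library of both groups.

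CDC45, the helicase cofactor that turns a loaded MCM ring into an active helicase, showed the largest change. CDC45 (ENSG00000093009; chromosome 22, bases 19479459 to 19520612, plus strand in GENCODE release 29) stood at 36.09, 33.99 and 31.03 FPKM under shControl, against 21.08, 21.12 and 20.96 under shTRMT6. The shTRMT6 libraries were nearly identical to each other and all below the lowest control. The mean fell from 33.7 ± 2.54 to 21.1 ± 0.0833 FPKM (SD, n = 3 each; log2 change -0.65, SE 0.10, limma adjusted p = 0.000401). CDC45 was past the threshold under all 16 alternative settings, with log2 changes from -0.71 to -0.60.

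TICRR, treslin, brings CDC45 to origins after phosphorylation by cyclin-dependent kinase. TICRR (ENSG00000140534; chromosome 15, bases 89575482 to 89631056, plus strand) stood at 6.95, 7.25 and 7.43 FPKM under shControl, against 4.68, 4.42 and 4.62 under shTRMT6. All shTRMT6 libraries were again lower, with little spread in either group. The mean fell from 7.21 ± 0.242 to 4.57 ± 0.136 FPKM (log2 change -0.56, SE 0.11, adjusted p = 0.0020), and the gene passed under all 16 alternatives (-0.65 to -0.50). TICRR shares 7.01% of its exon bases with KIF7 on the other strand, and no source used here gives the strand setting of the counting. The partner gene KIF7 stood at 8.87, 9.62 and 8.91 FPKM under shControl, against 8.10, 7.13 and 7.43 under shTRMT6 (log2 change -0.25, adjusted p = 0.0933; 0.0306 with quantile normalization and 0.0489 with median-of-ratios scaling).

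MCM10, which helps the assembled helicase to start unwinding, varied widely between libraries and did not pass the test. MCM10 (ENSG00000065328; chromosome 10, bases 13161554 to 13211104, plus strand) stood at 12.02, 16.32 and 14.51 FPKM under shControl, against 11.88, 17.42 and 9.30 under shTRMT6. Replicate 2 was the highest library of each group, and the groups overlapped. The log2 change was -0.17 with a 95% confidence interval from -0.56 to 0.21 (adjusted p = 0.476). Without shTRMT6 replicate 3 the log2 change was 0.021, and without shTRMT6 replicate 2 it was -0.40 (adjusted p = 0.0684). After removal of each library's trend on GC content it was -0.35 (adjusted p = 0.103). With the replicate number as a block in addition, MCM10 was lower by test (adjusted p = 0.0155).

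CDC7 and DBF4, the kinase and its activating subunit, did not pass the test. CDC7 (ENSG00000097046; chromosome 1, bases 91500893 to 91525764, plus strand) stood at 5.32, 6.90 and 5.58 FPKM under shControl, against 6.50, 7.37 and 5.43 under shTRMT6. DBF4 (ENSG00000006634; chromosome 7, bases 87876216 to 87909541, plus strand) stood at 10.12, 11.94 and 10.77 FPKM under shControl, against 10.30, 11.96 and 9.99 under shTRMT6. For both genes replicate 2 was again the highest library of its group. The log2 change of CDC7 was 0.099 (95% confidence interval -0.19 to 0.39, adjusted p = 0.596) and that of DBF4 -0.025 (-0.27 to 0.22, adjusted p = 0.888). After removal of each library's trend on GC content, CDC7 turned to -0.14 (adjusted p = 0.238) and DBF4 was lower by test (-0.26, adjusted p = 0.0243).

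The ratio of DBF4 to CDC7 within a library does not depend on library scaling. It was 1.90, 1.73 and 1.93 in shControl and 1.58, 1.62 and 1.84 in shTRMT6, with overlapping groups. The mean log2 ratio differed by -0.14 (exact two-sided permutation p = 0.2; the smallest p that 3 libraries against 3 allow is 0.1). DBF4B, the other activator of CDC7, fell from 11.9 ± 1.65 to 7.56 ± 0.328 FPKM (1.58-fold, log2 change -0.59, SE 0.12, adjusted p = 0.00228).

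Of the ORC subunits among the 10 genes, ORC1 fell and ORC6 was lower without passing. ORC1, the largest subunit and the one whose protein comes and goes with the cell cycle (ENSG00000085840; chromosome 1, bases 52372829 to 52404459, minus strand), stood at 9.89, 10.87 and 10.21 FPKM under shControl, against 8.77, 8.14 and 7.55 under shTRMT6. The groups did not overlap, and the mean went from 10.3 ± 0.50 to 8.15 ± 0.61 FPKM (log2 change -0.31, SE 0.11, adjusted p = 0.0417). The call of ORC1 ended in 6 of 16 alternatives: without a filter on low values (0.0619), on leaving out shControl replicate 2 (0.126) or 3 (0.10), and on leaving out any shTRMT6 library (replicate 1, 0.0704; replicate 2, 0.108; replicate 3, 0.106).

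ORC6, the smallest subunit (ENSG00000091651; chromosome 16, bases 46689643 to 46698394, plus strand), stood at 23.19, 25.17 and 26.10 FPKM under shControl, against 22.17, 20.51 and 18.03 under shTRMT6. Every shTRMT6 library was below every control, but the nearest libraries of the groups lay close together. The log2 change was -0.29 (SE 0.11, 95% confidence interval -0.52 to -0.054, adjusted p = 0.0530). With the replicate block the adjusted p was 0.0177, and with the GC correction 0.00257 (log2 change -0.43). ORC6 also passed without shControl replicate 1 (0.0323), with a mean of at least 5 FPKM (0.0460), with quantile normalization (0.0455) and with median-of-ratios scaling (0.0279).

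The remaining ORC subunits did not follow ORC1. ORC2 stood at 5.08, 6.96 and 6.34 FPKM under shControl, against 9.36, 10.86 and 8.71 under shTRMT6, and ORC4 read 6.21, 8.74 and 8.06 against 12.77, 15.06 and 8.95 FPKM. Both rose, ORC2 by 1.57-fold (log2 change 0.58, SE 0.13, adjusted p = 0.00439) and ORC4 by 1.60-fold (0.60, SE 0.17, adjusted p = 0.0146). The ORC4 call ended without shControl replicate 1 (0.0593), without shTRMT6 replicate 1 (0.0518) or 2 (0.0653), and without a filter on low values (0.0833). Both log2 changes were smaller with the GC correction, 0.35 for ORC2 (adjusted p = 0.00635) and 0.34 for ORC4 (0.0457). ORC3 and ORC5 did not pass (0.32 and 0.15, adjusted p = 0.0707 and 0.365), and the GC correction turned ORC5 to -0.059. ORC3 was higher by test with the replicate block (0.0227), without shControl replicate 2 (0.0472) and without shTRMT6 replicate 3 (0.0426). The ratio of ORC1 to ORC2 within a library, chosen after these values were seen, was 1.95, 1.56 and 1.61 in shControl and 0.937, 0.750 and 0.867 in shTRMT6. The difference in mean log2 ratio was -1.0, and -0.62 with the GC correction. In all 3 shTRMT6 libraries ORC1 lay below and ORC2 above every control, so this ratio had to be lower there. Its exact permutation p of 0.1, the smallest possible, was fixed by that choice and adds no support.

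CDC6 and CDT1, which load the helicase together with ORC, were lower in mean without passing the test. CDC6 (ENSG00000094804; chromosome 17, bases 40287633 to 40304657, plus strand) stood at 33.63, 36.41 and 34.64 FPKM under shControl, against 34.90, 30.32 and 27.28 under shTRMT6. Replicate 1 of shTRMT6 lay among the controls. The log2 change was -0.18 (95% confidence interval -0.41 to 0.051, adjusted p = 0.207), and with the GC correction -0.29 (adjusted p = 0.0233). CDT1 (ENSG00000167513; chromosome 16, bases 88803213 to 88809258, plus strand) stood at 38.43, 29.25 and 27.98 FPKM under shControl, against 27.81, 24.36 and 22.74 under shTRMT6. Its highest value, shControl replicate 1, stood well above the others, while the closest libraries of the groups nearly touched. The log2 change was -0.33 (SE 0.13, 95% confidence interval -0.61 to -0.058, adjusted p = 0.0571). CDT1 passed with the replicate block (adjusted p = 0.00341), with median-of-ratios scaling (0.0447) and without shControl replicate 3 (0.0329); with the GC correction it was -0.18 (0.156), and without shControl replicate 1 it was -0.19 (0.164).

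GMNN, geminin, the inhibitor of CDT1 (ENSG00000112312; chromosome 6, bases 24774931 to 24786099, plus strand), stood at 23.58, 24.47 and 22.82 FPKM under shControl, against 20.27, 20.56 and 21.02 under shTRMT6. The groups did not overlap, and the shift was small: the mean was 23.6 ± 0.826 against 20.6 ± 0.378 FPKM (log2 change -0.19, 95% confidence interval -0.39 to 0.017, adjusted p = 0.140). With the GC correction the log2 change was -0.35 (adjusted p = 0.00752). The ratio of CDT1 to GMNN was 1.63, 1.20 and 1.23 in shControl and 1.37, 1.18 and 1.08 in shTRMT6. The groups overlapped (difference in mean log2 ratio -0.15, exact permutation p = 0.5), and without shControl replicate 1 the difference was -0.0043. It turned to 0.17 with the GC correction (exact permutation p = 0.4), so no direction is given for this ratio.

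**Figure D3:**
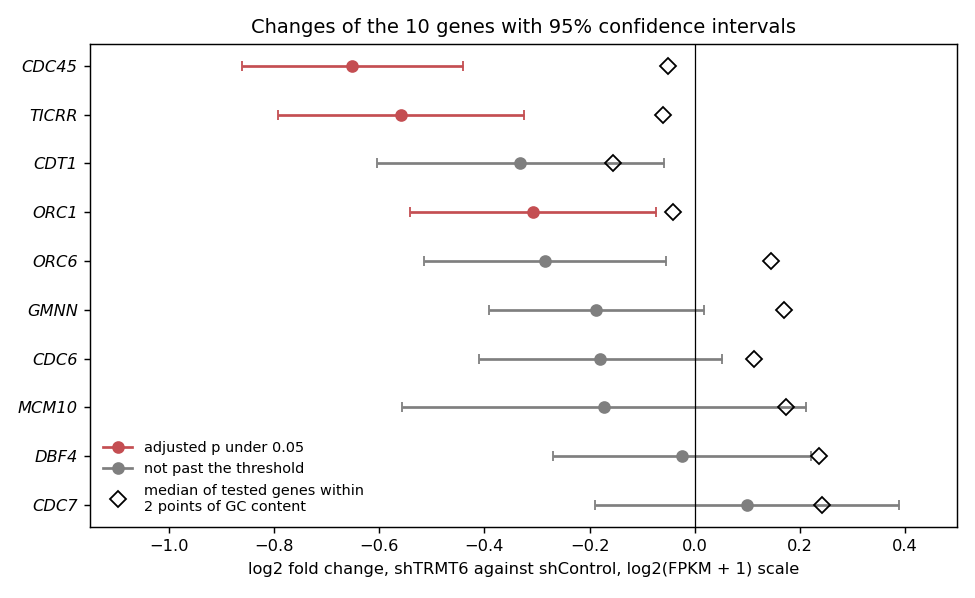
Log2 fold change of each of the 10 genes with its 95% confidence interval, in red where the adjusted p is under 0.05. Diamonds give the median of all tested genes whose transcript GC content lies within 2 points of that gene. Of the 10 estimates 9 lie below 0, as do 4989 of all 10592 tested genes, and all 10 lie below their diamond.

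Fold changes in these libraries moved with the GC content of transcripts. Transcripts of the 10 genes ran from 39.1% GC (CDC7) to 64.9% (CDT1), by GENCODE release 29. Tested genes within 2 points of GC of CDC45 (1282 genes) had a median log2 change of -0.051, and those near TICRR (1314 genes) -0.060, against -0.65 and -0.56 for the genes themselves. For CDT1 the neighbours' median was -0.16 against its own -0.33. Near the low-GC genes it was higher: 0.24 for DBF4 and CDC7, 0.17 for MCM10 and GMNN, 0.14 for ORC6 and 0.11 for CDC6. Each of the 10 genes lay below the median of its neighbours. With the GC correction 7 of the 10 passed, all lower, where 19.4% of all tested genes were lower. With the GC correction and the replicate block together 9 passed (all but CDC7), where 24.9% of all tested genes were lower.

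**Figure D4:**
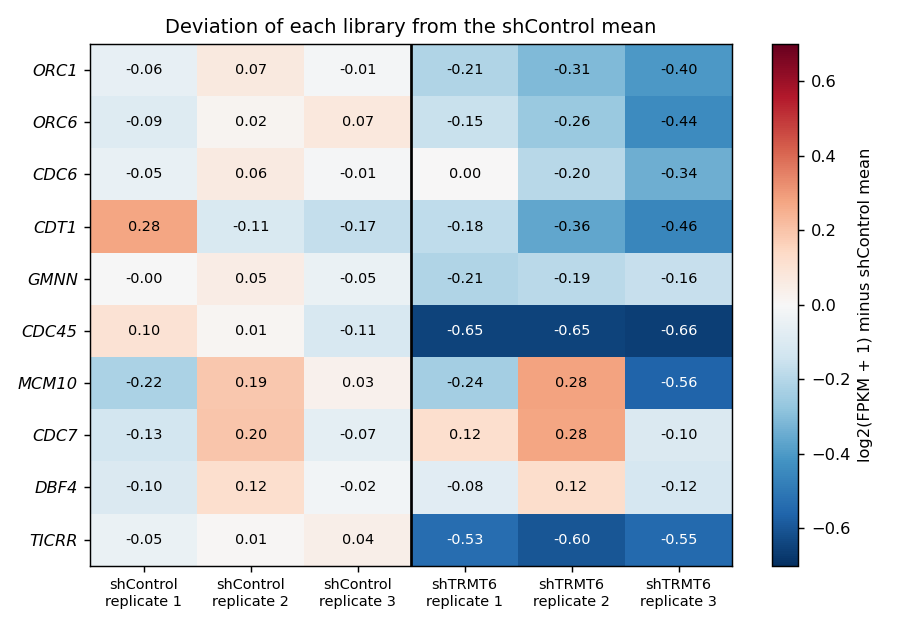
Difference of each library from the shControl mean on the log2(FPKM + 1) scale, for the 10 genes (rows) and 6 libraries (columns). The CDC45 and TICRR rows are low in all shTRMT6 libraries (-0.66 to -0.53), and the MCM10, CDC7 and DBF4 rows are highest in replicate 2 of both groups.

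Levels per length in shControl put CDC6 (34.9 ± 1.41 FPKM), CDC45 (33.7 ± 2.54) and CDT1 (31.9 ± 5.70) at the top, with overlapping libraries. ORC6 (24.8 ± 1.49) and GMNN (23.6 ± 0.826) came next and overlapped with each other, followed by MCM10 (14.3 ± 2.16). DBF4 (10.9 ± 0.922) and ORC1 (10.3 ± 0.50) overlapped, and TICRR (7.21 ± 0.242) and CDC7 (5.93 ± 0.847) were lowest, with no overlap between them. In shTRMT6 the CDC45 mean, 21.1 FPKM, was below that of CDT1 (24.97 ± 2.59 FPKM), and the TICRR mean, 4.57 FPKM, was below that of CDC7 (6.43 ± 0.972 FPKM).

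The genes whose pattern over the 6 libraries was most like the mean standardised profile of the 10 were CCS (Pearson r = 0.997 over 6 libraries), PPP6C (0.991), GGCT (0.990), RAB2B (0.986) and MGME1 (0.985). They were picked as the highest r among all tested genes, over only 6 libraries. The shift between the groups also enters r, so these values only describe likeness, and shared control was not tested. CCS is the copper chaperone of superoxide dismutase, and MGME1 a mitochondrial exonuclease. The profile was highest in shControl replicate 2 and lowest in shTRMT6 replicate 3. GGCT and MGME1 fell (log2 change -0.33 and -0.41, adjusted p = 0.0293 and 0.0199), and the other 3 did not pass. After the GC correction PPP6C and RAB2B were lower by test (-0.36 and -0.37) and GGCT was at -0.51; with quantile normalization CCS was lower (adjusted p = 0.0321). The calls of GGCT and MGME1 ended without shControl replicate 2 (0.114 and 0.0717), without shTRMT6 replicate 3 (0.0904 and 0.0713) and without a filter on low values (0.0579 and 0.0604). That of GGCT ended also without shControl replicate 3 (0.0656) and shTRMT6 replicate 1 (0.0721).

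Other genes of origin recognition and licensing moved both ways. Of 13 tested, 5 fell and 2 rose, with a median log2 change of -0.081; of all tested genes 16.1% fell and 19.3% rose. The number that rose was 1 without shControl replicate 1, shTRMT6 replicate 1 or shTRMT6 replicate 2, and 3 without shControl replicate 2 or shTRMT6 replicate 3. Of all 10592 tested genes, 1887, 1305, 1295, 2027 and 2014 rose in these fits, in that order. The GC correction gave 8 that fell and 2 that rose, where 2058 of all tested genes fell and 2088 rose. The 5 were MCM5, MCM7, MCM2, MCM3 and MCM4, subunits of the MCM ring; MCM6 did not pass (-0.038, adjusted p = 0.811), and its sign turned without shControl replicate 2 (0.013) or shTRMT6 replicate 3 (0.018), while with the GC correction it was lower by test (-0.21, adjusted p = 0.0419). MCM7 fell from 281.1 ± 31.5 to 178.3 ± 8.83 FPKM (1.58-fold, log2 change -0.65, SE 0.10, adjusted p = 0.000449), and MCM5 had a log2 change of -0.89 (adjusted p = 0.000147). MCM2, MCM3 and MCM4, named after their values were seen, had -0.55, -0.47 and -0.39; the MCM4 call ended without shControl replicate 2 (0.0527), without shTRMT6 replicate 3 (0.0598) and without a filter on low values (0.0798).

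Of 22 other firing factors 8 fell and none rose (all tested genes, 16.1% and 19.3%), with a median log2 change of -0.17. With the GC correction 12 fell and 1 rose, where 2058 of all 10592 tested genes fell and 2088 rose. With the replicate block or quantile normalization 11 fell and 1 rose. There, 2252 and 1930 of all tested genes fell, and 2702 and 1971 rose. Without shTRMT6 replicate 3 the counts were 7 and 2, beside 1597 and 2014 of all tested genes. GINS1, a subunit of the GINS complex that joins CDC45 at the helicase, stood at 19.08, 18.66 and 18.54 FPKM under shControl, against 8.91, 9.30 and 8.07 under shTRMT6 (log2 change -1.02, SE 0.10, adjusted p = 3.2e-05). RECQL4, a DNA helicase, fell from 54.5 ± 2.46 to 29.9 ± 3.58 FPKM (1.83-fold, adjusted p = 0.00013). POLE, the catalytic subunit of the leading strand polymerase, fell from 18.8 ± 0.79 to 10.8 ± 0.883 FPKM (1.73-fold, adjusted p = 0.000287).

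Of 19 regulators that degrade or protect CDT1, CDC6 and geminin, or that reverse CDC7 phosphorylation, 4 fell and 2 rose, with a median near 0 (-0.0009), beside 16.1% and 19.3% of all tested genes. With the replicate block 6 fell and 4 rose, where 2252 of all 10592 tested genes fell and 2702 rose. Without shControl replicate 2 or 3, 2 fell and 2 rose, and without shTRMT6 replicate 3, 2 fell and 4 rose. Of all 10592 tested genes 1418, 1337 and 1597 fell in these fits, in that order, and 2027, 1622 and 2014 rose. CCNF, cyclin F, which marks CDC6 for degradation, fell from 20.2 ± 1.70 to 13.0 ± 1.01 FPKM (1.56-fold, adjusted p = 0.00117), and CDC20, an activator of the anaphase promoting complex, fell 1.41-fold (adjusted p = 0.00404). PPP1CB, a catalytic subunit of protein phosphatase 1, rose from 14.9 ± 2.58 to 27.2 ± 5.28 FPKM (1.83-fold, adjusted p = 0.00109), and SKP1, of the SCF ubiquitin ligase, rose 1.48-fold (log2 change 0.56, adjusted p = 0.00119; 0.35 with the GC correction). DTL and SKP2, substrate receptors of the ligases that degrade CDT1, were the other members that fell and are named after their values were seen. Their log2 changes were -0.37 and -0.32 (adjusted p = 0.0252 and 0.0332), and with the GC correction -0.57 and -0.53. The DTL call ended in 5 of 16 alternatives and that of SKP2 in 5, among them leaving out shControl replicate 2 (0.0840 and 0.112), shControl replicate 3 (0.0868 and 0.0606) and shTRMT6 replicate 3 (0.0784 and 0.0896). It also ended without a filter on low values for both (0.0623 and 0.0580), without shTRMT6 replicate 1 for DTL (0.0836) and without shTRMT6 replicate 2 for SKP2 (0.123).

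Of 18 E2F and pocket protein genes 4 fell and 2 rose, with a median log2 change of 0.052, beside 16.1% and 19.3% of all tested genes. The GC correction gave 5 and 4, where 2058 of all 10592 tested genes fell and 2088 rose. E2F1, an activator that drives entry into S phase, stood at 38.61, 30.73 and 29.48 FPKM under shControl, against 19.42, 19.25 and 19.42 under shTRMT6 (1.70-fold lower, log2 change -0.73, SE 0.11, adjusted p = 0.000482). E2F2, also an activator, fell from 7.97 ± 0.382 to 4.54 ± 0.525 FPKM (1.76-fold, adjusted p = 0.000791). MYBL2, a partner of the MuvB complex at genes of the later cell cycle, fell from 46.6 ± 6.92 to 26.3 ± 1.22 FPKM (1.77-fold, adjusted p = 0.000283). E2F5, which acts with pocket proteins as a repressor, rose from 14.8 ± 1.14 to 21.8 ± 1.22 FPKM (1.47-fold, adjusted p = 0.002). RBL2, the pocket protein p130 of resting cells, and E2F8 were named after their values were seen. RBL2 rose 1.49-fold (log2 change 0.51, adjusted p = 0.00524, log2 change 0.33 with the GC correction). E2F8 fell 1.55-fold at a low level, from 3.07 ± 0.19 to 1.98 ± 0.241 FPKM (adjusted p = 0.0135). It did not reach the mean of 5 FPKM, and its adjusted p was up to 0.0495 under the 15 alternatives that kept it.

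**Figure D5:**
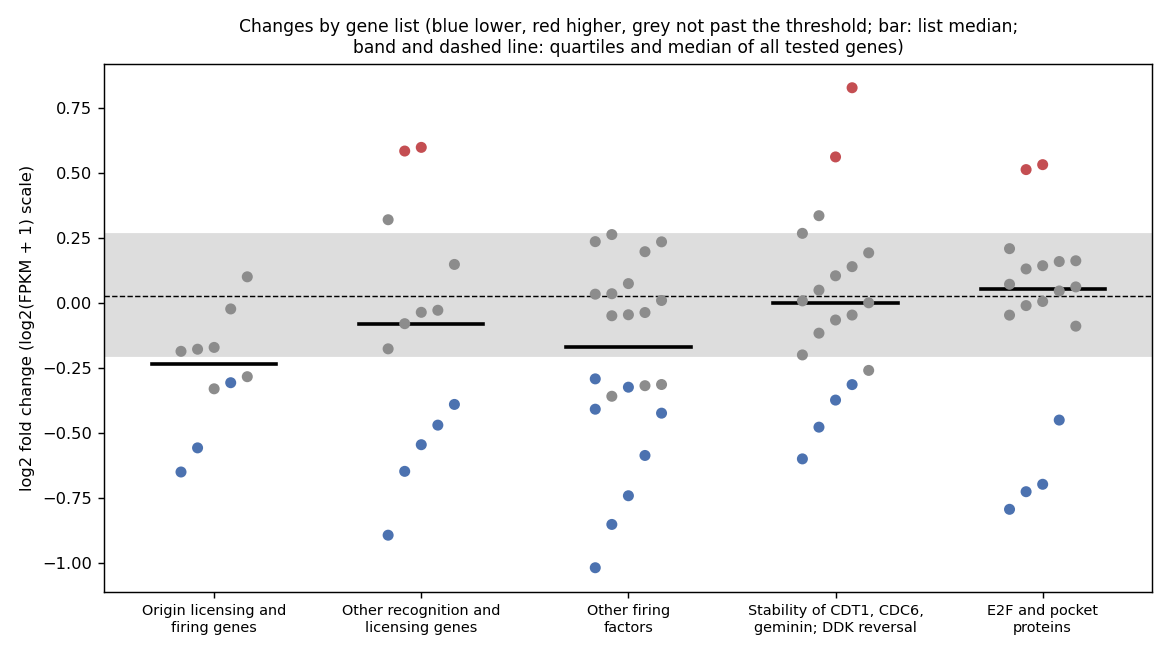
Log2 fold changes of the 10 genes and of the 4 related lists, 1 point per tested gene, blue where lower, red where higher and grey where not past the threshold. Bars are list medians (-0.24, -0.081, -0.17, -0.0009 and 0.052); the grey band and dashed line are the quartiles and the median (0.024) of all tested genes.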

How the data were processed

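The authors deposited FPKM values, as the headers of the table state. Tools listed in the submitters' processing notes, with no role given, are StringTie 1.3.1, RSEM, HISAT2, Bowtie2 2.2.8 and fastp 0.18.0; the genome build and strand setting are not given in the sources used here. Columns were matched to samples by reading NC in the headers as shControl and SH as shTRMT6, and their numbers as replicate numbers. The labels do not spell out these abbreviations, so the match is inferred. Identifiers were given symbols through a names table (20257 matched), and coordinates, length and GC content from GENCODE release 29.

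Testing was limited to genes averaging 1 FPKM or more and used limma 3.58.1 (R 4.3.3) on log2(FPKM + 1), trended prior, two-sided, Benjamini-Hochberg over all 10592 genes; this scale understates changes of low genes. Fold changes are ratios of mean FPKM. Depth was estimated by a search from smallest steps in FPKM times length of short genes with 1 transcript, and is rough. All 10 genes, the leading 4 called genes of each related list, and the 5 genes most like the 10 were named; others are marked. Members and lists were chosen with earlier results of these data known.

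Deviations from the group means correlated between libraries of the same number (0.206, 0.364 and 0.170 across genes for replicates 1, 2 and 3; other combinations -0.288 to 0.0936), so blocked values are given where they change a call; nothing in the labels says what a number stands for, or that replicates were separate cultures, so the p-values reflect only library-to-library spread, possibly technical. Alternatives were pseudocounts of 0.1 and 0.5, no filter, median-of-ratios scaling, quantile normalization, a minimum mean of 5 FPKM, no variance trend, the block, a GC correction (each library's lowess trend on transcript GC removed), both together, and each library left out. A leukocyte marker is not reported here.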

Additional observations from a re-analysis of the deposited data

How the results depend on the processing

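The count of origin licensing and firing genes past the threshold was 3, all lower; it was 5 with median-of-ratios scaling and 5 with the replicate block, 7 with the GC correction and 9 with the GC correction and the block, and 2 to 4 when 1 library was left out. The lists of other firing factors (8) gave 13 with the GC correction, with or without the block, and the regulators of stability (6) gave 10 with the replicate block. Totals called in the 5 lists otherwise stayed within 1.5 times, though their split by direction moved. The block ended no call of the named genes; it added ORC6, CDT1, ORC3 and UFD1. Signs turned only for genes that did not pass: MCM10 (0.021 without shTRMT6 replicate 3; range with 1 library left out -0.40 to 0.021), CDC7 (-0.14 with the GC correction, with or without the block), DBF4 (0.035, 0.0018 and 0.022 without shControl replicate 2, shTRMT6 replicate 1 and shTRMT6 replicate 3), MCM6 (0.013 and 0.018 without shControl replicate 2 and shTRMT6 replicate 3, range -0.12 to 0.018), ORC5 (-0.059 with the GC correction, with or without the block) and SLC25A40 (-0.16 likewise, and -0.014 without shTRMT6 replicate 2, range -0.014 to 0.25). The cause was not tested. The ratios of CDT1 to GMNN and DBF4 to CDC7 kept their sign when 1 library was left out (-0.24 to -0.0043 and -0.21 to -0.10), but with the GC correction, added after seeing the data, CDT1 to GMNN turned to 0.17 (DBF4 to CDC7, -0.11); within replicate pairs exact permutation p was 0.25 for each, the smallest that 3 pairs allow. Of all 10592 tested genes, 3746 were called in the main fit, 4146 with the GC correction, 4954 with the block and 5267 with both. The number was 2407 to 3618 when 1 library was left out. Those called lower were 1704 in the main fit, 1940 with median-of-ratios scaling, 2058 with the GC correction, 2252 with the block and 2637 with both. Depth is an estimate only, so no counting interval is given.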

Other observations

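Some of the 10 genes have a divergent neighbour, a protein-coding gene on the other strand whose annotated start lies within 1000 bases in GENCODE release 29. There were 4 such pairs, looked for after the values of the 10 genes were seen: ORC1 with PRPF38A (105 bases apart), ORC6 with VPS35 (125), CDC45 with UFD1 (244) and DBF4 with SLC25A40 (141). PRPF38A, a splicing factor, fell with ORC1 (9.87 ± 0.854 to 7.79 ± 0.596 FPKM, 1.27-fold, limma adjusted p = 0.0499), but its call ended in 6 of 16 alternatives, with adjusted p up to 0.173, among them leaving out shControl replicate 2 or 3 or any shTRMT6 library; with the GC correction its log2 change went from -0.31 to -0.54. VPS35, a retromer subunit, went the other way from ORC6: it stood at 10.79, 13.27 and 12.58 FPKM under shControl, against 16.83, 19.45 and 15.70 under shTRMT6, and rose 1.42-fold (log2 change 0.47, adjusted p = 0.00777; 0.27 with the GC correction). UFD1, a cofactor of the segregase p97, stood at 90.29, 84.54 and 81.41 FPKM under shControl, against 101.15, 103.91 and 95.94 under shTRMT6. All shTRMT6 libraries were above the controls, while CDC45 was below them; UFD1 did not pass (log2 change 0.23, adjusted p = 0.0611; 0.0165 with the replicate block, 0.0274 with quantile normalization, 0.0257 without shControl replicate 1 and 0.0491 without shTRMT6 replicate 3). SLC25A40, which shares 142 exon bases with DBF4, did not pass (0.12, adjusted p = 0.549).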
